A study of Homo sapiens with 6 samples.

Results

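The isocitrate dehydrogenase (IDH) and malic enzyme (ME) genes were followed in BT-549 cells, a human triple negative breast cancer line, by poly-A RNA-seq. All 8 genes were taken by symbol among the 63140 genes in the tables, 5 IDH genes (IDH1, IDH2, IDH3A, IDH3B and IDH3G) and 3 ME genes (ME1, ME2 and ME3). They were chosen by enzyme family and not by a threshold on measured values, but with earlier results of these data known. The cells were wild type and were kept before treatment in RPMI-1640 with serum and insulin. They were then grown for 24 h either in adipocyte-conditioned medium (ACM), collected from OP9 mouse cells differentiated into adipocytes, or in unconditioned medium (UCM), with 3 libraries from each medium. The labels describe the RNA-seq cells as grown in 50% ACM, while the study's supplement describes the ACM as undiluted for RNA-seq. The insulin and oleate medium used on the OP9 cells is described, but a formula for UCM is not given in the sources used here, so adipocyte products and medium ingredients cannot be told apart. The labels place the cells in wells of a 6-well plate and do not say whether replicates came from separate cultures, so p-values measure only the spread between these libraries.

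IDH and ME enzymes sit where the TCA cycle meets the supply of NADPH, the electron donor for making fatty acids and sterols. IDH1 in the cytosol and peroxisomes and IDH2 in mitochondria turn isocitrate into α-ketoglutarate and form NADPH. IDH3, built from a catalytic alpha subunit (IDH3A) with beta and gamma subunits (IDH3B and IDH3G), carries out the same step in the TCA cycle with NAD+ and forms NADH. Malic enzymes turn malate into pyruvate: ME1 in the cytosol and ME3 in mitochondria use NADP+, and ME2 in mitochondria mainly uses NAD+.

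IDH1 fell in ACM, and IDH2, which makes NADPH by the same reaction in mitochondria, did not pass the test, with its estimate on the higher side. With both IDH1 and IDH2 at close to equal levels in UCM, IDH2 mRNA exceeded IDH1 mRNA in all 3 ACM libraries. The catalytic subunit IDH3A fell by a smaller amount, and that call was lost in several alternatives. IDH3B, IDH3G and the 3 ME genes did not pass the test.

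Among 14451 genes tested with edgeR's quasi-likelihood test at a Benjamini-Hochberg adjusted p at or below 0.05, 320 were lower in ACM (2.21%) and 484 higher (3.35%). All 8 IDH and ME genes passed the filter on low counts, which ignores the size of any difference. Of these, 2 were called lower (IDH1 and IDH3A) and 0 higher, DESeq2 also gave 2 and 0, and limma-trend on log2 TPM gave 1 and 0. At an unadjusted p at or below 0.05, 5 were lower (also IDH3G, ME1 and ME2) and 1 higher (IDH2), where 11.5% of all genes tested were lower and 11.9% higher. At the thresholds used in the study, an unadjusted p at or below 0.05 and a log2 fold change (log2 FC) of at least 0.58 in size, 1.71% of genes were lower and 4.12% higher, and IDH1 was the 1 gene of the 8 past them. All ACM libraries lay below all UCM libraries for 5 of the 8 genes (IDH1, IDH3A, IDH3B, IDH3G and ME2), against 15.1% of all genes tested. The opposite separation held for 13.9% of genes tested and for 0 of the 8. The median log2 FC of the 8 genes was -0.19, beside -0.011 over all genes tested.

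Libraries held between 17135288 and 21053257 expected counts. The labels call the cells epithelial, but the summed level of 5 epithelial markers (EPCAM, CDH1, KRT8, KRT18 and KRT19) was 1.3 to 1.96 counts per 1000000 (CPM) in ACM and 1.52 to 2.8 CPM in UCM, while 4 mesenchymal markers (VIM, CDH2, FN1 and ZEB1) summed to at least 4120 CPM in every library. ESR1 and PGR, the estrogen and progesterone receptor genes, were at 0 in all 6 libraries, while ERBB2, the HER2 receptor gene, was at 72.6 to 75.0 CPM in ACM and 61.6 to 73.1 CPM in UCM. Of 6 adipocyte markers, ADIPOQ, LEP and CIDEC were at 0 in every library and the sum of all 6 reached at most 0.143 CPM. Replicates were compared in pairs within each medium, as the mean squared count difference over that expected from counting error. It was 2.32 for UCM replicates 2 and 3, and 21.55 and 19.94 for UCM replicate 1 with replicates 2 and 3. Between ACM replicates it was 13.23 to 18.97, so the closeness of UCM replicates 2 and 3 stood out most. Calls that change without UCM replicate 1, or without the first replicate of both media, are given both ways. In these bulk libraries, fewer cells of a kind and less RNA per cell cannot be told apart.

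Promoter sequence is shown for the genes that hold a match to the core of the antioxidant response element, TGACNNNGC, because IDH1 and ME1 are the cytosolic NADPH-forming members of the 2 families. RefSeq windows (GRCh38.p14) were found for 8 of 8 genes, 11 windows in all, each reading the 250 bases before an annotated transcription start. This motif and those below were searched on both strands, matches to this one are in capitals, and 10.9% of the 35114 windows in the table hold at least 1. Windows of IDH1 (minus strand, chr2:208255072-208255321), IDH3G (minus strand, chrX:153794376-153794625) and ME1 (minus strand, chr6:83431052-83431301) did, each read 5′ to 3′ toward the start. The start used for IDH1 lies 11003 bases inside the GENCODE 44 gene span, and those of IDH3A and IDH2 lie 17864 and 1856 bases inside theirs.
IDH1: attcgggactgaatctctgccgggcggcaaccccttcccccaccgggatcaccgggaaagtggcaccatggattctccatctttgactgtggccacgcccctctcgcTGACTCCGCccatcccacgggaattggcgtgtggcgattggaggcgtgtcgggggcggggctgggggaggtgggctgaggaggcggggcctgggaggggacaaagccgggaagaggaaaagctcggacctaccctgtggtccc
IDH3G: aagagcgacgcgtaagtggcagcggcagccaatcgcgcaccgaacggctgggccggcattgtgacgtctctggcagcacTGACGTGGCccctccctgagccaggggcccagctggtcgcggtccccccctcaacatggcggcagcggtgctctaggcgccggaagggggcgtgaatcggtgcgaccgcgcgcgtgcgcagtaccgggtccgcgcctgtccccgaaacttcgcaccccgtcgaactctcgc
ME1: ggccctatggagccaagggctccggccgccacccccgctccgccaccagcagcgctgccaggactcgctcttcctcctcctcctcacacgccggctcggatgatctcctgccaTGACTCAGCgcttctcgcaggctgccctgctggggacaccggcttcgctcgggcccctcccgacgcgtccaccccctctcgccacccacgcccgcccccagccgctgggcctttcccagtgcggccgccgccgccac
The match in IDH1 was TGACTCCGC at 143 to 135 bases before the start, and that in ME1 was TGACTCAGC at 137 to 129 bases before its start. These distances are nearly the same, but that of IDH1 holds for only 1 of its 2 annotated starts. In IDH3G the match TGACGTGGC lay 171 to 163 bases before the start. The other window of IDH1 and the windows of IDH2, IDH3A, IDH3B, ME2 and ME3 held none. A core of the sterol regulatory element, TCACNCCA, occurs in 3.2% of all windows and was in none of the 11. CCAAT, present in 32.0% of windows, was in windows of IDH1, IDH3G, ME2 and ME3, and CACGTG, present in 6.35%, was in windows of ME3. These matches are letters in a window and not measured binding.

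Levels of different genes were compared per length, in transcripts per 1000000 (TPM). In UCM the order from high to low was IDH3B (188.0 TPM), IDH3G (151.2), IDH3A (77.3), IDH2 (65.8), IDH1 (64.5), ME2 (45.9), ME1 (11.1) and ME3 (4.01), each a mean of 3 libraries. The ranges of neighbouring genes overlapped for IDH3A with IDH2 and for IDH2 with IDH1, and for no other neighbours. In ACM the order was IDH3B (174.4 TPM), IDH3G (133.1), IDH2 (79.2), IDH3A (61.7), ME2 (39.5), IDH1 (29.5), ME1 (8.74) and ME3 (5.03), and no neighbouring ranges overlapped, although the lowest ME1 value (7.65) and the highest ME3 value (7.62) nearly met. IDH1 stood above ME2 in UCM and below it in ACM, while IDH2 stood below IDH3A in UCM and above it in ACM. The beta and gamma subunits of IDH3 were the most abundant of the 8 in both media, and the 2 malic enzymes that use NADP+ were the least. The level of IDH3G may include reads of the overlapping gene SSR4, if strand was not used.

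IDH1 (ENSG00000138413) lies on the minus strand at chr2:208236229-208266074 (GRCh38, GENCODE 44). Its CPM, scaled between libraries by edgeR's TMM factors, was 32.0, 33.6 and 32.7 in ACM, against 58.2, 79.5 and 79.6 in UCM. The highest ACM library was well below the lowest UCM library, and UCM replicate 1 was below the other two. The mean was 72.4 ± 12.3 CPM for UCM and 32.8 ± 0.771 CPM for ACM (SD over 3 libraries). The log2 FC was -1.14 with an SE of 0.119 and an adjusted p of 0.00193 in edgeR's test, a level lower by 54.7% with a 95% interval from -62.3% to -45.6%. Of all genes tested, 75 (0.519%) had a lower log2 FC. These CPM rest on 674, 596 and 602 expected counts for the ACM replicates against 1229, 1478 and 1366 for UCM. The ACM libraries varied by 2.35%, less than the 4.0% that counting error alone gives, and the UCM libraries by 17% against 2.71% (coefficients of variation). The antisense gene IDH1-AS1 overlaps an IDH1 exon on the opposite strand and had 5 to 14 counts, and whether counting used strand is not stated. IDH1 was called lower in 15 of 15 alternatives, with log2 FC from -1.27 to -1.06.

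IDH2 (ENSG00000182054, minus strand, chr15:90083045-90102477) had 80.5, 95.9 and 91.5 CPM in ACM and 63.0, 77.5 and 81.8 CPM in UCM. The groups overlapped, since ACM replicate 1 was below UCM replicate 3. The mean was 74.1 ± 9.84 CPM for UCM and 89.3 ± 7.97 CPM for ACM (SD over 3 libraries). The log2 FC of 0.27 had an SE of 0.106 and an adjusted p of 0.161 in edgeR's test, and its 95% interval ran from 0.03 to 0.51. Without the first replicate of both media the log2 FC was 0.25 at an adjusted p of 0.0403, and leaving out single libraries gave 0.17 to 0.36 with no call.

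**Figure D1:**
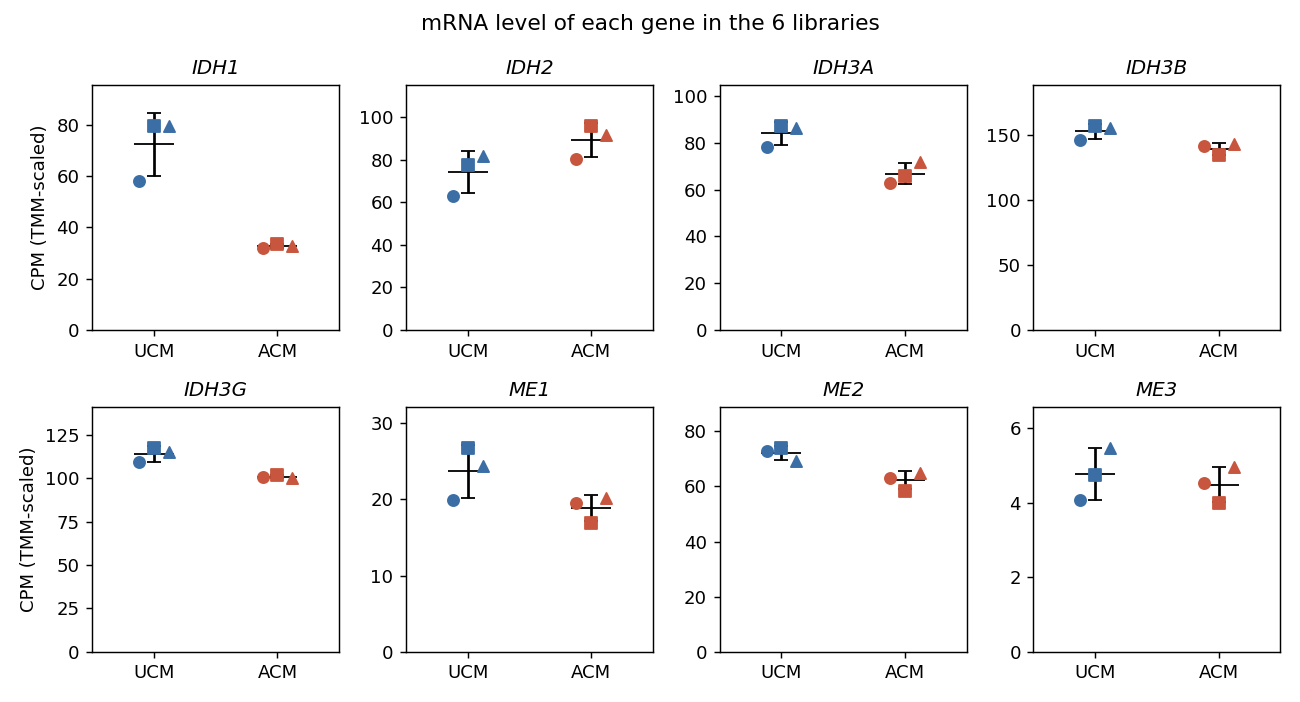
TMM-scaled CPM of the 8 genes in each library, on linear axes from 0 with a scale of its own for each gene. Blue points are UCM and red points ACM, with circle, square and triangle for replicates 1, 2 and 3, and black bars give the mean and SD of 3 libraries. IDH1 has the widest gap between media (58.2 CPM or more in UCM, 33.6 or less in ACM), while IDH2, ME1 and ME3 overlap.

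IDH1 and IDH2 were set against each other within each library, which removes any scaling between libraries. The log2 ratio of IDH1 to IDH2 CPM was -1.33, -1.51 and -1.48 in ACM and -0.11, 0.04 and -0.04 in UCM. All ACM ratios lay below all UCM ratios, and the means differed by -1.40. The exact two-sided permutation test gave 0.1, the smallest p that 3 against 3 libraries allow, and 0.167 after Benjamini-Hochberg adjustment over the 5 ratios tested. Per length, IDH1 made up 30.1%, 25.7% and 26.0% of the summed TPM of both genes in ACM. In UCM it made up 49.0%, 51.6% and 47.7%. The summed TPM of IDH1 and IDH2 was 108.7 ± 8.42 in ACM and 130.3 ± 15.6 in UCM (SD, n = 3 each), and these groups overlapped, from 99.3 to 115.5 TPM in ACM and from 112.4 to 141.1 TPM in UCM.

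**Figure D2:**
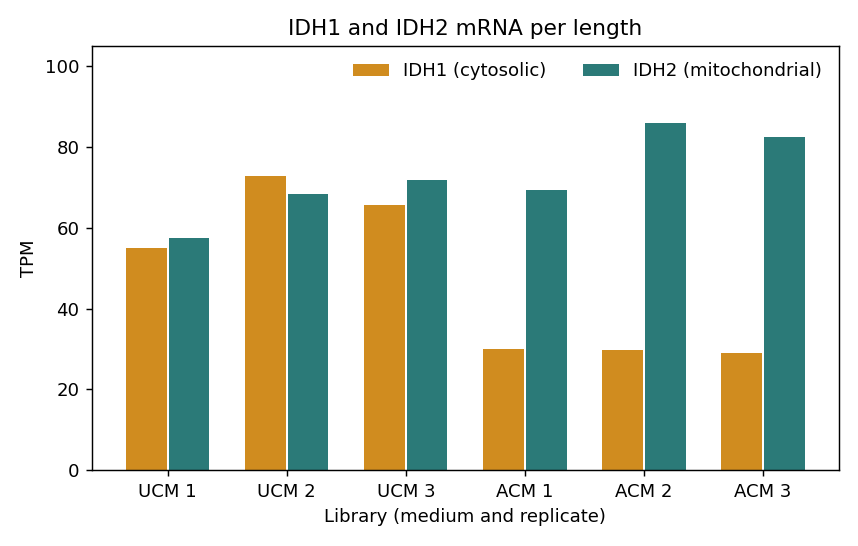
TPM of IDH1 (ochre) and IDH2 (green) in each of the 6 libraries, on an axis from 0. The 2 bars are of similar height in the UCM libraries, where IDH1 is 47.7% to 51.6% of their sum, and the IDH1 bar is the lower one in each ACM library, at 25.7% to 30.1%.

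Among the subunits of IDH3, IDH3A fell and the others did not pass the test. IDH3A (ENSG00000166411, plus strand, chr15:78131498-78171945), the catalytic subunit, had 63.0, 65.9 and 71.6 CPM in ACM and 78.2, 87.3 and 86.5 CPM in UCM. The groups did not overlap, and the log2 FC was -0.33 with an SE of 0.0787 and an adjusted p of 0.0387 in edgeR's test. The call was lost without ACM replicate 1 (log2 FC -0.28, adjusted p 0.0953), ACM replicate 2 (-0.32, 0.139), UCM replicate 2 (-0.30, 0.177) or UCM replicate 3 (-0.30, 0.177), with RSEM's effective lengths in the fit (-0.30, 0.156), and with limma-trend on TPM (-0.32, 0.127 with 1 added). The opposite-strand gene CIB2, which shares exon sequence with IDH3A, had 64 to 107 counts per library.

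IDH3B (ENSG00000101365, minus strand, chr20:2658395-2664219), a structural subunit, had 141.1, 134.0 and 142.5 CPM in ACM and 146.1, 156.8 and 155.2 CPM in UCM. Every ACM library lay below every UCM library, by a narrow margin at the nearest pair, and the log2 FC of -0.13 had a 95% interval from -0.28 to 0.01 and an adjusted p of 0.25 in edgeR's test. IDH3G (ENSG00000067829, minus strand, chrX:153785766-153794512), the gamma subunit, had 100.8, 102.0 and 99.96 CPM in ACM and 109.1, 117.7 and 115.1 CPM in UCM. Its groups were also apart, and its log2 FC was -0.18, with a 95% interval from -0.32 to -0.03 and an adjusted p of 0.135. SSR4 overlaps IDH3G exon sequence on the opposite strand and had 3285 to 4364 counts per library, against 1810 to 2302 for IDH3G. A share of SSR4 reads in IDH3G therefore cannot be told apart if strand was not used.

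Within libraries, the log2 ratio of IDH3A to the mean of IDH3B and IDH3G was -0.92, -0.83 and -0.74 in ACM, against -0.69, -0.64 and -0.63 in UCM. The groups were apart by a small margin, the difference was -0.18 and the exact permutation p was 0.1 (adjusted 0.167). IDH3A was 16.7% ± 1.12 of the summed IDH3 TPM in ACM and 18.5% ± 1.27 in UCM (SD, n = 3 each), and on this scale the groups overlapped. The summed IDH3 TPM was 369.2 ± 12.5 in ACM and 416.6 ± 13.2 in UCM, and the IDH3 genes held 77.2% ± 1.7 and 76.2% ± 1.65 of the TPM of all 5 IDH genes. IDH1 held 6.18% ± 0.259 of that sum in ACM and 11.8% ± 1.05 in UCM. The log2 ratio of IDH1 to the mean of the 3 IDH3 genes differed by -0.92, from -0.66 ± 0.19 in UCM to -1.58 ± 0.05 in ACM (exact permutation p 0.1, adjusted 0.167), and the groups were apart.

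None of the malic enzymes was called, and each differed less between media than IDH1. ME1 (ENSG00000065833, minus strand, chr6:83210402-83431051), the cytosolic NADP+ form, had 19.5, 16.9 and 20.2 CPM in ACM and 19.9, 26.8 and 24.4 CPM in UCM. UCM replicate 1 lay among the ACM libraries, and the other two UCM libraries lay above them all. The log2 FC of -0.33 had an SE of 0.128 and an adjusted p of 0.158 in edgeR's test. Without UCM replicate 1 it was -0.43 at an adjusted p of 0.041, and without the first replicate of both media -0.45 at 0.0399. ME1 showed nearly the same log2 FC as IDH3A, with a wider interval, from -0.61 to -0.04.

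ME2 (ENSG00000082212, plus strand, chr18:50879080-50954257), the mitochondrial form that mainly uses NAD+, had 63.2, 58.5 and 65.0 CPM in ACM and 72.8, 74.1 and 69.4 CPM in UCM. The groups were apart, and the log2 FC was -0.21 with a 95% interval from -0.37 to -0.05 and an adjusted p of 0.115. ME2 was the main malic enzyme mRNA per length, at 74.1% ± 2.86 of the 3 genes' TPM in ACM and 75.3% ± 2.46 in UCM (SD, n = 3 each). ME1 held 16.4% ± 1.54 and 18.2% ± 2.13.

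ME3 (ENSG00000151376, minus strand, chr11:86441108-86672636), the mitochondrial NADP+ form, was the lowest of the 8, at 4.51, 3.999 and 4.95 CPM in ACM and 4.07, 4.73 and 5.48 CPM in UCM. The groups overlapped, and the log2 FC of -0.08 had a 95% interval from -0.52 to 0.35, which spans a level from 30.1% lower to 27.8% higher. Its TPM was 3.86, 7.62 and 3.61 in ACM, against 3.68, 3.87 and 4.49 in UCM. ACM replicate 2 was the highest on that scale and the lowest in CPM, and its effective length was 726 bases, against at least 1606 in the other libraries. On TPM, and without UCM replicate 3 (0.04), the sign of the log2 FC turned.

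The log2 ratio of ME1 to ME2 was -1.72 ± 0.06 in ACM and -1.62 ± 0.22 in UCM (SD, n = 3 each), and the exact permutation p was 0.4 (adjusted 0.5). That of ME3 to ME2 was -3.80 ± 0.08 and -3.93 ± 0.25, with an exact permutation p of 0.5 (adjusted 0.5). Both ratios overlapped between media. The difference in the ratio of ME1 to ME2, -0.11, became -0.24 without UCM replicate 1, -0.03 without UCM replicate 2 and -0.06 without UCM replicate 3. That of ME3 to ME2, 0.13, became 0.02 without UCM replicate 1 and 0.27 without UCM replicate 3, and was 0.46 on TPM.

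**Figure D3:**
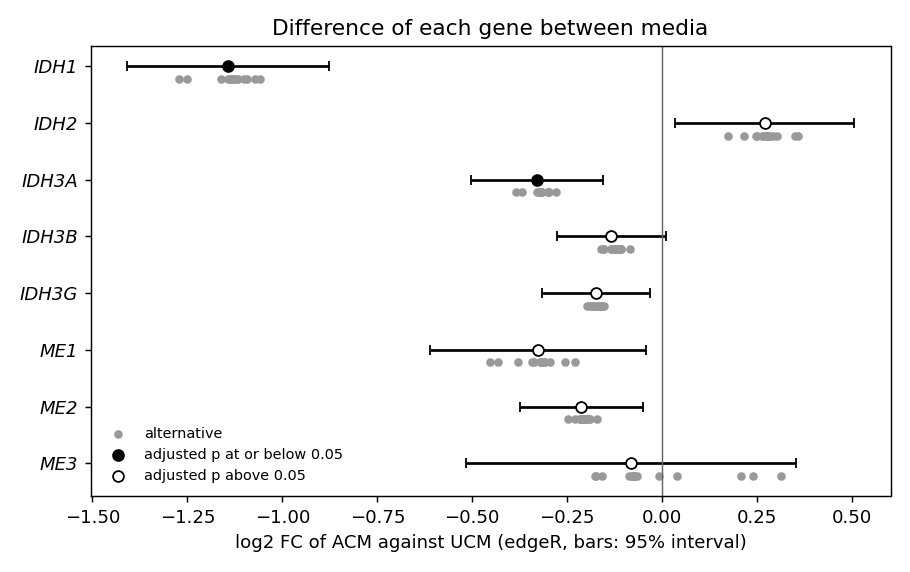
Log2 FC of ACM against UCM for the 8 genes. Circles and bars give edgeR's estimate and 95% interval, filled where the adjusted p is at or below 0.05, and grey points give the 15 alternatives for each gene. IDH1 at -1.14 lies apart from the other seven, whose estimates run from -0.33 to 0.27, and the ME3 alternatives fall on both sides of 0.

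Enzymes beside IDH and ME in metabolism were counted in the same fit. Over all genes tested, 2.21% were called lower and 3.35% higher by edgeR. At an unadjusted p at or below 0.05, these shares were 11.5% and 11.9%. Of 14 genes of the TCA cycle apart from IDH, 1 was called lower, CS (log2 FC -0.29 ± 0.0739 SE, adjusted p 0.0496), which makes citrate from acetyl-CoA and oxaloacetate. None was called higher by edgeR, while DESeq2 called 1 lower and 1 higher. At an unadjusted p at or below 0.05, 3 were lower and 1 higher. The list's median was -0.12. The call of CS was lost in 10 of 15 alternatives, among them leaving out any library but UCM replicate 1 (adjusted p 0.0529 to 0.221).

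Of 14 genes for the exchange of citrate, malate and α-ketoglutarate with the cytosol, 2 were lower and 1 higher, with a median of -0.09. DESeq2 also gave 2 and 1, and 4 were lower and 1 higher at an unadjusted p at or below 0.05. ACLY, which splits cytosolic citrate into acetyl-CoA and oxaloacetate, went from 383.0 ± 29.1 CPM in UCM to 275.9 ± 8.71 CPM in ACM (SD, n = 3 each; log2 FC -0.47, adjusted p 0.00683). SLC25A1, the mitochondrial citrate carrier, went from 104.0 ± 14.4 to 77.0 ± 3.00 CPM (log2 FC -0.43, adjusted p 0.034), and its call was lost in 8 of 15 alternatives, among them leaving out any library but UCM replicate 1 (adjusted p 0.0682 to 0.15). PCK2, the mitochondrial enzyme that makes phosphoenolpyruvate from oxaloacetate, rose from 11.98 ± 0.379 to 25.3 ± 2.50 CPM (log2 FC 1.08, adjusted p 0.00141).

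Of 11 other genes listed for NADPH supply, 10 were tested and ALDH1L1 was not. The list includes NADK and NADK2, which make NADP+ and not NADPH. ALDH1L2, a mitochondrial folate enzyme that forms NADPH, rose from 28.9 ± 1.02 CPM in UCM to 53.9 ± 3.18 CPM in ACM (SD, n = 3 each; log2 FC 0.90, adjusted p 0.001). It was the 1 gene of the list called higher by edgeR, while DESeq2 called 2 and 3 were higher at an unadjusted p at or below 0.05. None was lower by edgeR, by DESeq2 or at an unadjusted p at or below 0.05, and the median was 0.05.

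Lipid synthesis was represented by 6 genes reported here, which do not make up the whole list. The list was drawn up as NADPH-using, but not every enzyme in it, ACACA among them, uses NADPH directly. Of the 6 genes, 2 were lower and 0 higher, with a median of -0.07. DESeq2 also called 2 lower and 0 higher, and 3 were lower and 0 higher at an unadjusted p at or below 0.05. DHCR7 (log2 FC -1.51, adjusted p 0.00219) acts late in cholesterol synthesis, and SCD (-1.21, 0.00232) makes monounsaturated fatty acids. ACLY, PCK2, ALDH1L2, SCD and DHCR7 kept their calls in 15 of 15. FASN, the fatty acid synthase, was named after its value was seen and had a log2 FC of -0.16 ± 0.065 SE at an adjusted p of 0.161. Of the 4 genes reported here that act on 2-hydroxyglutarate or α-ketoglutarate (D2HGDH, ADHFE1, OGDHL and DHTKD1), 0 were called in either direction by edgeR or DESeq2, 0 at an unadjusted p at or below 0.05, and the median was -0.000926.

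**Figure D4:**
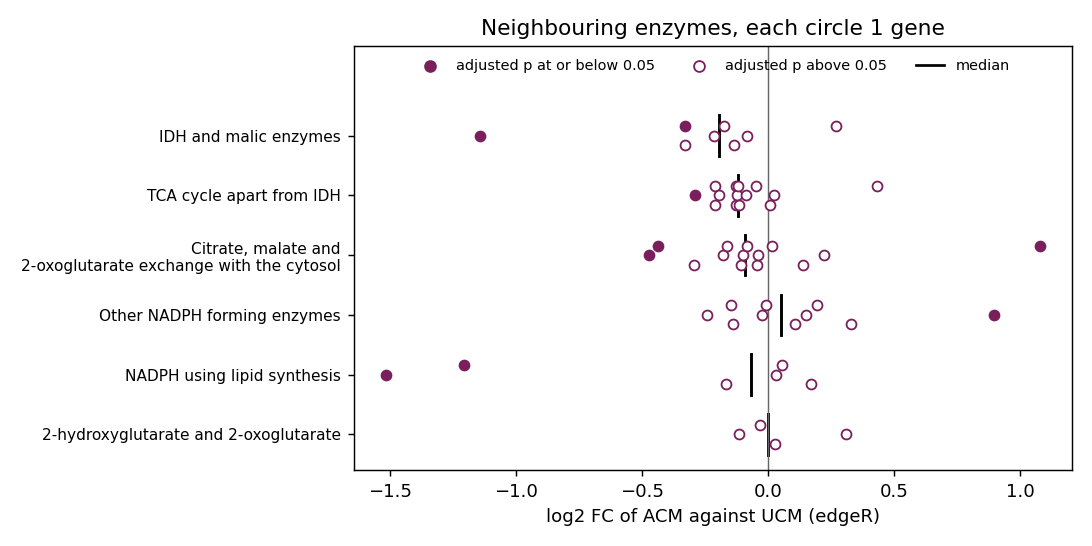
Log2 FC of ACM against UCM for each tested gene of the IDH and ME families and of 5 lists of neighbouring enzymes. Each circle is 1 gene, filled where the adjusted p is at or below 0.05, and the black line is the list's median. DHCR7 at -1.51 and SCD at -1.21 stand far to the left of the other genes in the list drawn as NADPH-using lipid synthesis. PCK2 at 1.08 and ALDH1L2 at 0.90 stand far to the right of their lists.

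The genes whose log2 CPM followed IDH1 most closely over the 6 libraries were sought among 9428 protein-coding genes with a mean of at least 10 CPM. They were IDI1 (Pearson's r = 0.9998), an isopentenyl diphosphate isomerase, DHCR7 (0.9995), FDFT1 (0.9986), which makes squalene, and SQLE (0.9976), which oxidises it. IDI1 had 27.9, 29.9 and 29.7 CPM in ACM and 63.7, 96.4 and 95.8 CPM in UCM, with UCM replicate 1 below the other two as in IDH1. The 6 points are 3 libraries of each medium, so the difference between media enters every r, and r is given with no test. The genes were picked for the highest r among all those searched, so a library pattern like that of IDH1 follows from the choice.

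The genes most like ME1 were KIF2C (r = 0.9986), a mitotic kinesin, RBM38 (0.9943), an RNA-binding protein, SNRPB (0.9942), a spliceosome protein, TPST1 (0.994), which adds sulfate to tyrosines, and MRAS (0.9916), a Ras-related GTPase. KIF2C had 121.4, 110.7 and 122.5 CPM in ACM and 122.5, 144.0 and 135.8 CPM in UCM. Like ME1, its UCM replicate 1 lay beside the ACM libraries, a likeness that follows from the choice by r. None of the genes named here was shared between IDH1 and ME1, but lists this short drawn from 9428 genes would seldom share any.

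**Figure D5:**
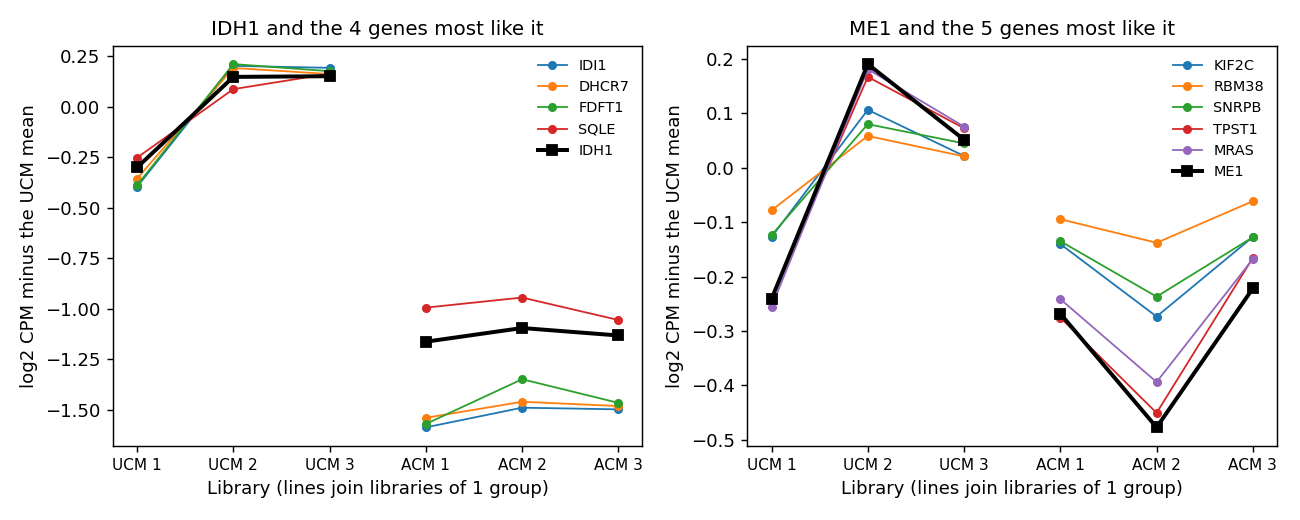
Log2 CPM minus the UCM mean in each library for IDH1 (left, black squares) and ME1 (right, black squares) with the genes whose log2 CPM correlates most with each (4 for IDH1, 5 for ME1), in colour. Lines join libraries of 1 group. The coloured genes were chosen for their likeness to the black one. IDH1 and its 4 genes are lower in every ACM library than in every UCM library, with UCM replicate 1 the lowest of its group, while ME1 and its genes have ACM replicate 2 lowest and UCM replicate 2 highest.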

How the data were processed

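Poly-A RNA was read in pairs from 6 libraries, 3 ACM and 3 UCM, grouped by their labels. Per the submitters' processing notes, reads were trimmed with Trim Galore, aligned to GRCh38 (hg38) with STAR and quantified with RSEM; versions, gene annotation and strand setting are not given in the sources used here. The authors deposited RSEM expected counts, which share ambiguous reads between genes and are not scaled for depth, and TPM, scaled per effective length and to a sum of 1000000 per library. A deposited table of the authors' DESeq2 fold changes and p-values was not used. Positions and symbols came from GENCODE 44 (61547 of 63140 identifiers matched with their version, 994 more without it).

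Expected counts were rounded and fitted in R 4.3.3 with edgeR 4.0.16 (filterByExpr, TMM factors 0.987 to 1.007, robust quasi-likelihood, condition only, Benjamini-Hochberg over 14451 genes), checked on simulated data. SE is the log2 FC over the square root of F. CPM used TMM-scaled library sizes. Totals were 21053257, 18011670 and 18378790 for the ACM replicates, then 20975782, 18591289 and 17135288 for UCM, and the common coefficient of biological variation was 0.115. Counting errors and intervals do not cover PCR duplicates. Within-library log2 ratios were compared by exact permutation (SciPy 1.17.1).

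The 8 genes, the lists and the ratios were chosen with earlier results of these data known. Named genes were all 8 genes, up to 4 called genes per list, and the 5 genes most correlated with IDH1 and with ME1. Some genes of the lists and of those correlated with IDH1 are not reported here, and list counts and medians leave them out. Alternatives were DESeq2 1.42.0, RLE factors, other count filters, limma 3.58.1 on log2 TPM with 1 or 0.1 added, effective lengths as offsets, a replicate block and leaving out each library; leaving out both first replicates was added after seeing the data.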

Additional observations from a re-analysis of the deposited data

How the results depend on the processing

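The counts over all genes moved the most: 320 lower and 484 higher became 679 and 1045 with a filter of at least 1 count in total, 132 and 230 when limma-trend was run on TPM, as log2 with 1 added, 138 and 234 with 0.1 added, and 134 and 272 with effective lengths as offsets. Leaving out 1 library at a time gave 62 to 572 lower and 125 to 738 higher, both largest without UCM replicate 1, and leaving out both first replicates, chosen after seeing the data, gave 726 and 1017. Of the IDH and ME genes, 1 instead of 2 was called lower in both TPM fits and with effective lengths, and 1 to 3 without single libraries, where ME1 joined without UCM replicate 1. The count called higher was 1 (IDH2) instead of 0 with the filter of at least 1 count in total (adjusted p 0.0238) and without both first replicates, and 0 without any single library. IDH1 was called in 15 of 15 alternatives (adjusted p at most 0.0129), IDH3A lost its call in 7 of 15 (adjusted p 0.00459 to 0.177), and IDH3B, IDH3G and ME2 kept their direction and stayed above the threshold in all 15. ME3 changed sign with 1 added to TPM (0.21), with 0.1 added (0.24), with effective lengths (0.31) and without UCM replicate 3 (0.0404, the top of a range from -0.18 when single libraries were left out). The 5 ratios kept their direction in 8 of 8 settings, with differences from -0.24 to -0.03 for ME1 to ME2 and from 0.02 to 0.46 for ME3 to ME2. The causes were not tested.

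Libraries with the same replicate number were not described as paired. Their deviations correlated at 0.318, 0.035 and 0.177, and the main fit did not take the numbers to pair them. ACM replicate 3 correlated more with UCM replicate 2 (0.196) than with its own number. The first replicates had the highest correlation of all. ACM replicate 1 was at -0.223 and -0.156 with UCM replicates 2 and 3, and UCM replicate 1 at -0.015 and -0.314 with ACM replicates 2 and 3. Deviations from a group mean cancel out within each medium, so these correlations are not independent of one another. The first replicates also had the most genes with a count, 20959 in ACM and 20957 in UCM, against 19646 to 19936 in the others. They were the deepest libraries as well, at 21053257 and 20975782 expected counts against 17135288 to 18591289. The part of depth in the number of genes with a count was not tested. A structure shared by the first replicates was not tested. A replicate block gave 703 lower and 909 higher over all genes, and among the IDH and ME genes 2 lower and 1 higher, IDH2 (log2 FC 0.27, adjusted p 0.0272).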
